A study of Mus musculus with 14 samples.

Results

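Creatine kinases, myoglobin and their partners in energy transfer were followed in transplanted mouse hearts through 6 genes, Ckm, Ckmt2, Ckb, Mb, Slc25a4 and Ak1. They were chosen by function, with earlier results of these data known. Their probe sets are those annotated to these genes by current symbol or older synonym, and they are 6 of the 8251 genes that the array's annotation names. They have 10 of the 12488 probe sets on the array, and 8 of the 10, covering all 6 genes, passed the filter on low signals. The brightest probe set stands for each gene: 161569_f_at for Ckm, 103618_at for Ckmt2, 93126_at for Ckb, 100614_at for Mb, 93084_at for Slc25a4 and 96801_at for Ak1. Expression had been measured on 14 Affymetrix MG-U74Av2 arrays as signal intensity, a brightness on a linear scale in the authors' deposited units. Syngeneic grafts (isografts) were C57/BL6 hearts placed in C57/BL6 recipients and were taken at day 7 (n = 3 arrays) or day 70 (n = 2). Allografts were Balb/c hearts in C57/BL6 recipients. The rejecting allografts (n = 3, day 7) carry no named treatment, and the tolerizing allografts (n = 3 at day 7 and n = 3 at day 70) had anti CD80/86 mAb, an antibody treatment against the costimulatory ligands that T cells need for full activation. All groups are transplants, no unoperated heart was analysed here, and donor strain and graft type cannot be told apart in any comparison of allografts with isografts. The labels do not say whether replicates came from separate operations, so p-values measure the spread between these arrays.

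Heart muscle spends ATP at the myofibrils and regenerates it in mitochondria, and the creatine kinase shuttle links both sites. The adenine nucleotide translocator encoded by Slc25a4 exports ATP across the inner mitochondrial membrane, sarcomeric mitochondrial creatine kinase (Ckmt2) transfers its phosphate to creatine, and the muscle-type cytosolic enzyme (Ckm) remakes ATP beside myosin and the calcium pump. Ckb encodes the brain-type cytosolic subunit, which is made in many cell types, Ak1 the cytosolic adenylate kinase that interconverts adenine nucleotides, and Mb the oxygen-binding protein of heart and oxidative skeletal muscle.

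The sequences upstream of the 3 creatine kinase genes are shown because they encode related enzymes whose signals took different courses. They come from RefSeq on mouse build GRCm38.p6 and read 5′ to 3′ on the gene's strand. The Ckm sequence is the 250 bases before the gene's start, at chr7:19410844-19411093 on the + strand. The Ckmt2 sequence, at chr13:91876924-91877135 on the - strand, holds 212 bases and ends before the annotated gene begins. The Ckb sequence is 250 bases at chr12:111672339-111672588 on the - strand. Capitals mark matches to the E-box CANNTG, the site class of the MyoD family, and to the MEF2 consensus, the site class of the muscle factors of that name, each searched on both strands; the motifs can overlap. AAGGTCA, a site class of the estrogen-related receptors, was searched too and was not present in these 3 windows.
Ckm: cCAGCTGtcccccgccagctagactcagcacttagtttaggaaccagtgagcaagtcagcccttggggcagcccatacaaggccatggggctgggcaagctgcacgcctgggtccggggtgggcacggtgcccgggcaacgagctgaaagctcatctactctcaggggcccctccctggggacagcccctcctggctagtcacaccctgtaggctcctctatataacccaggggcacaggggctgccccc
Ckmt2: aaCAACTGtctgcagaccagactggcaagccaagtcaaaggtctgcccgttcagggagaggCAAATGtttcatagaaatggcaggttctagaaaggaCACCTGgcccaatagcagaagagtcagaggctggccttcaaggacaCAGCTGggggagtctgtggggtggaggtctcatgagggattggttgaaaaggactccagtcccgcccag
Ckb: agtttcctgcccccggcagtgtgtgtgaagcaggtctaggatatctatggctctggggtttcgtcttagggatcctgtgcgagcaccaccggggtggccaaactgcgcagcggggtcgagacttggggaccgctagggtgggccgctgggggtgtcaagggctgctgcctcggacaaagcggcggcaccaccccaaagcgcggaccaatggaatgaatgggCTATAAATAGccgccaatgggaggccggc
The Ckm window held 1 E-box and the Ckmt2 window 4, while the Ckb window held none and had 1 MEF2 match that includes its TATA-like run. Among 32851 annotated windows, an E-box was present in 66.22% at 250 bases and in 60.99% at 212 bases, a MEF2 match in 3.202% and 2.755%, and AAGGTCA in 4.079% and 3.574%. E-boxes are therefore common in windows of this size, and a match describes letters only.

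All arrays had the defining genes of heart muscle. The summed signal of 12 cardiac myocyte markers (such as Myh6, Tnnt2, Actc1 and Myl2) was 36120.6 to 55223.4 in day 7 isografts, 25393.5 to 38852.7 in day 7 tolerizing grafts, 44298.8 to 51885.5 in day 70 isografts and 34862.1 to 49159.5 in day 70 tolerizing grafts. In the rejecting grafts it was 5693.6, 8378.3 and 25195.9, so that rejecting replicate 3 stood apart. Taken from the mean log2 signal of the markers, and not from these sums, rejecting replicate 3 was at 4.96 times the other rejecting arrays. Results on rejecting grafts are given with and without that array where it moves a call. By the order of their accessions the samples fall into a run of 5 arrays, which holds replicate 3 of the 4 groups of 3 arrays and isograft day 70 replicate 2, and a run of 9. The labels do not call these runs batches. The signal of an 18S RNA control probe set was 30.3 to 83.4 in the run of 5 and 120.4 to 254.6 in the run of 9, without overlap. The 3'/5' signal ratio of the beta-actin control probe sets, a measure of RNA integrity and labelling, was 1.52 to 1.98 in day 7 isografts, 1.26 to 1.61 in rejecting grafts and 1.09 to 1.37 in tolerizing grafts at day 7. At day 70 this ratio was 1.75 to 1.76 in isografts and 1.24 to 1.69 in tolerizing grafts, without overlap. Its part in the results below was tested only as a covariate.

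In the rejecting hearts at day 7, 5 of the 6 genes fell against day 7 isografts, by 3.80-fold to at least 11.7-fold, and Ckb alone did not pass the test. Of all 10395 probe sets tested, 9.18% were called lower in this comparison (limma, Benjamini-Hochberg adjusted p under 0.05). The median log2 difference of the 6 genes was -2.68, against 0.04 over all probe sets. For the same 5 genes every rejecting array lay below every isograft array, which held in the lower direction for 14.9% of probe sets. The calls for Ckm, Mb and Ak1 held under every alternative setting in which they were tested. With only these groups in the fit those 3 of the 6 were called. Without rejecting replicate 3 the same 5 genes were called, with larger log2 differences: -4.24 for Ckm, -3.82 for Ckmt2, -3.85 for Mb, -2.46 for Slc25a4 and -2.81 for Ak1, and -0.16 for Ckb.

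**Figure D1:**
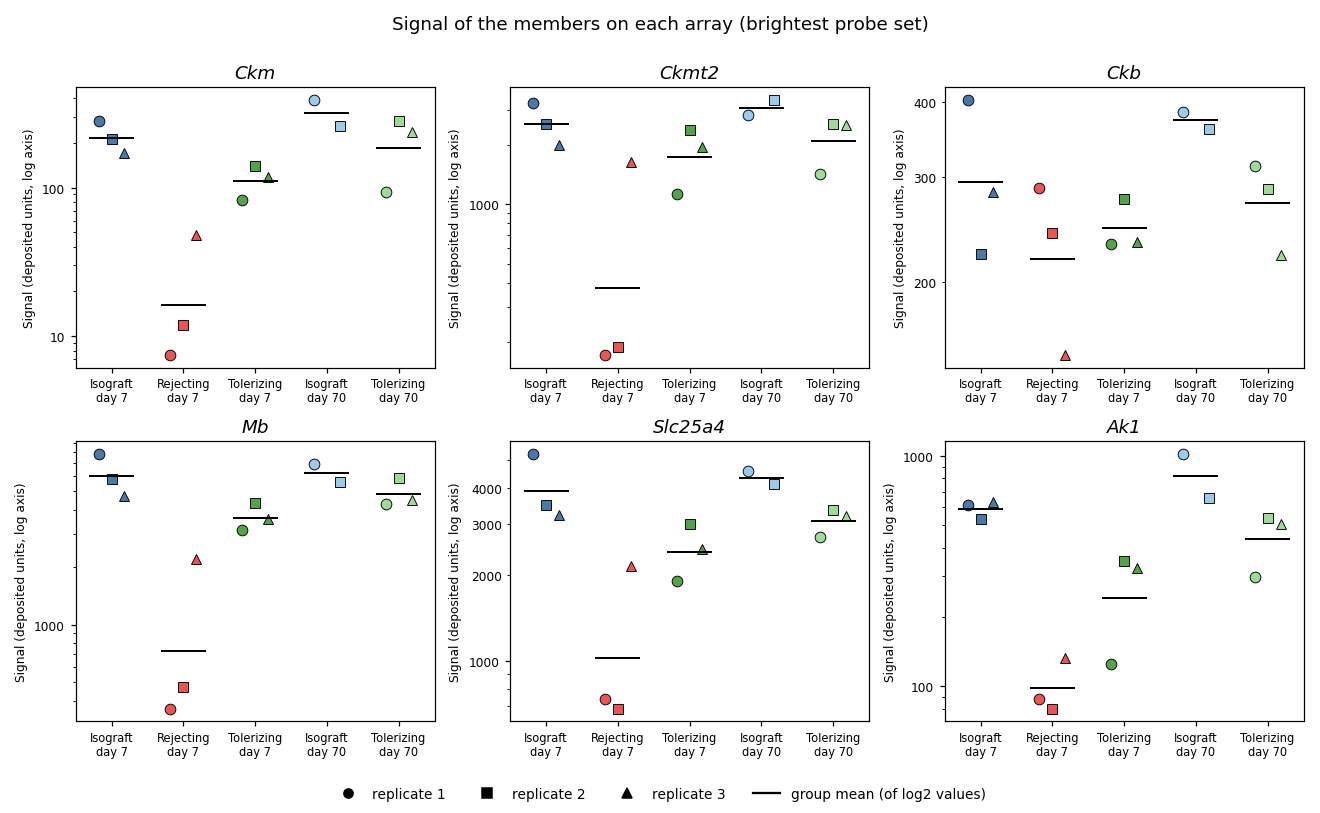
Signal of the 6 genes on each of the 14 arrays (deposited units, log axis), by group, with replicate 1 as a circle, replicate 2 as a square and replicate 3 as a triangle and a bar at the mean of log2 values. Ckm, Ckmt2, Mb, Slc25a4 and Ak1 are lowest in the rejecting grafts, where replicate 3 is above the others, and Ckb spans only 150.7 to 403.8 over all arrays.

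Among the creatine kinases, Ckm gave signals of 279, 212.4 and 170.3 in day 7 isografts and of 7.5, 11.9 and 48 in rejecting grafts. The groups did not overlap, and 1 rejecting array lay under the floor of 11 to which low signals were raised, so the fold is a lower bound. Ckm was at least 11.7-fold lower in rejection, a log2 difference of -3.55 (SE 0.52, limma adjusted p 0.00070). A second Ckm probe set, 160175_at, was dim throughout (17 to 62.5) and disagreed, with a log2 difference of -0.05 (SE 0.49, limma adjusted p 0.969). The brighter set carries the manufacturer's _f_ suffix, used for probes that related sequences may share, so the Ckm values rest on 1 probe set of that kind.

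Ckmt2, the mitochondrial partner, gave 3261.7, 2544.1 and 2003.6 in day 7 isografts and 172.7, 188.8 and 1626.2 in rejecting grafts. All rejecting arrays were below all isograft arrays, but replicate 3 stood just under them while the others were far down. The log2 difference was -2.76 (SE 0.65, limma adjusted p 0.00958), or 6.79-fold. The second Ckmt2 probe set, 162015_f_at, had the same pattern, with 27.4, 35 and 334.7 in rejection and 508.6 to 695.8 in isografts (8.92-fold lower, log2 -3.16, SE 0.70, limma adjusted p 0.00704). The call on the brighter set was lost with only these groups in the fit (adjusted p 0.0933) and without rejecting replicate 2 (0.0505).

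Ckb differed in kind. Its signals were 403.8, 222.3 and 282.6 in day 7 isografts and 286.7, 241.7 and 150.7 in rejecting grafts. The ranges overlapped, and the lowest value was that of rejecting replicate 3, the array on which Ckm and Ckmt2 were highest in its group. The log2 difference was -0.43 with a 95% interval of -0.98 to 0.12 (limma adjusted p 0.300), so that a fall of the size seen for Ckm or Ckmt2 lies outside that interval.

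Myoglobin was the brightest of these probe sets. Mb gave 7870, 5809.2 and 4706.5 in day 7 isografts and 363.1, 473.4 and 2204.6 in rejecting grafts. No array overlapped, and the log2 difference was -3.05 (SE 0.51, limma adjusted p 0.00138), or 8.28-fold. A second Mb probe set, 100615_at, was never above the floor (1 to 7.3) and was not tested, and neither was a further Ckmt2 probe set, 161876_r_at (1 to 10.8).

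The ATP carrier and the adenylate kinase followed with different sizes. Slc25a4 gave 5275.6, 3483.2 and 3232 in day 7 isografts and 736.7, 684.7 and 2138.7 in rejecting grafts, without overlap. Its fall was 3.80-fold (log2 -1.93, SE 0.38, limma adjusted p 0.00345), and the adjusted p was 0.0525 with only these groups in the fit. Ak1 gave 610.7, 533.3 and 634.2 in isografts and 88.3, 80.1 and 132.9 in rejecting grafts. Here the rejecting arrays lay close together. Taken from mean log2 signals, replicate 3 was 1.58 times the others for Ak1. That ratio was 9.01 for Ckmt2, 5.32 for Mb, 4.20 for Ckm, 3.01 for Slc25a4 and 0.572 for Ckb. Ak1 fell 6.03-fold (log2 -2.59, SE 0.36, limma adjusted p 0.00052).

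Within the accession runs the sizes separated along these lines. In the run of 5 arrays, with 1 array a group and no test, the log2 differences of rejecting from isograft hearts were -1.83 for Ckm, -0.30 for Ckmt2, -0.91 for Ckb, -1.09 for Mb, -0.60 for Slc25a4 and -2.25 for Ak1. In the run of 9, with 2 arrays a group, they were -4.41, -4.00, -0.19, -4.03, -2.59 and -2.76 in the same order. Each gene was lower in rejection in both runs, and Ak1 and Ckm had the largest differences in the run that holds rejecting replicate 3.

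**Figure D2:**
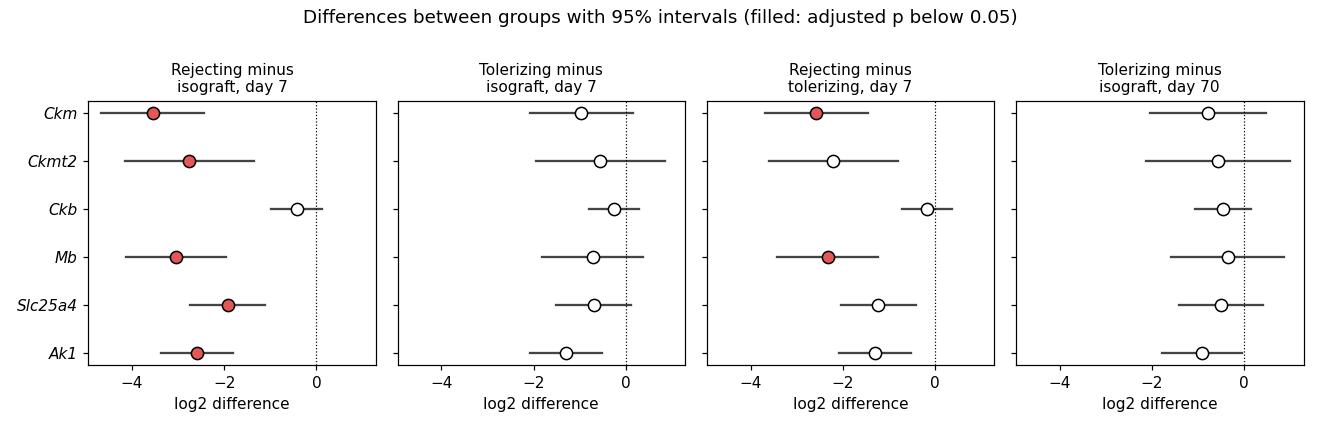
Log2 differences of the 6 genes in 4 comparisons, with 95% intervals from the limma fit over all probe sets and the line at 0 for no difference. In rejecting against isograft hearts the intervals of 5 genes lie below 0, at estimates of -1.93 to -3.55, and that of Ckb spans 0.

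The myocyte and leukocyte markers moved in the same comparison. Of the 12 cardiac myocyte markers tested, 11 fell in rejecting against day 7 isograft hearts (median log2 -2.06, Csrp3 being the other at -1.04), and 2 were called with only these groups in the fit. All 12 leukocyte markers (such as Ptprc, Cd3g, Cd8a and Lyz2) rose, with a median of 2.30, where 8.54% of all probe sets were called higher. Their summed signal was 3143.6 to 3594.6 in day 7 isografts, 9793 to 12403.1 in rejecting, 5354.7 to 8896.4 in day 7 tolerizing, 1162.5 to 2597.6 in day 70 isograft and 5707.8 to 9053.5 in day 70 tolerizing hearts. In whole-graft RNA, fewer cells of a type and less RNA per cell cannot be told apart. Set against the mean of the myocyte markers, which differed by -2.33, the log2 differences left over were -1.22 for Ckm, -0.72 for Mb, -0.43 for Ckmt2, -0.26 for Ak1, 0.40 for Slc25a4 and 1.90 for Ckb. These are values with no test, and the part that myocyte and leukocyte RNA has in the results was not tested.

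**Figure D3:**
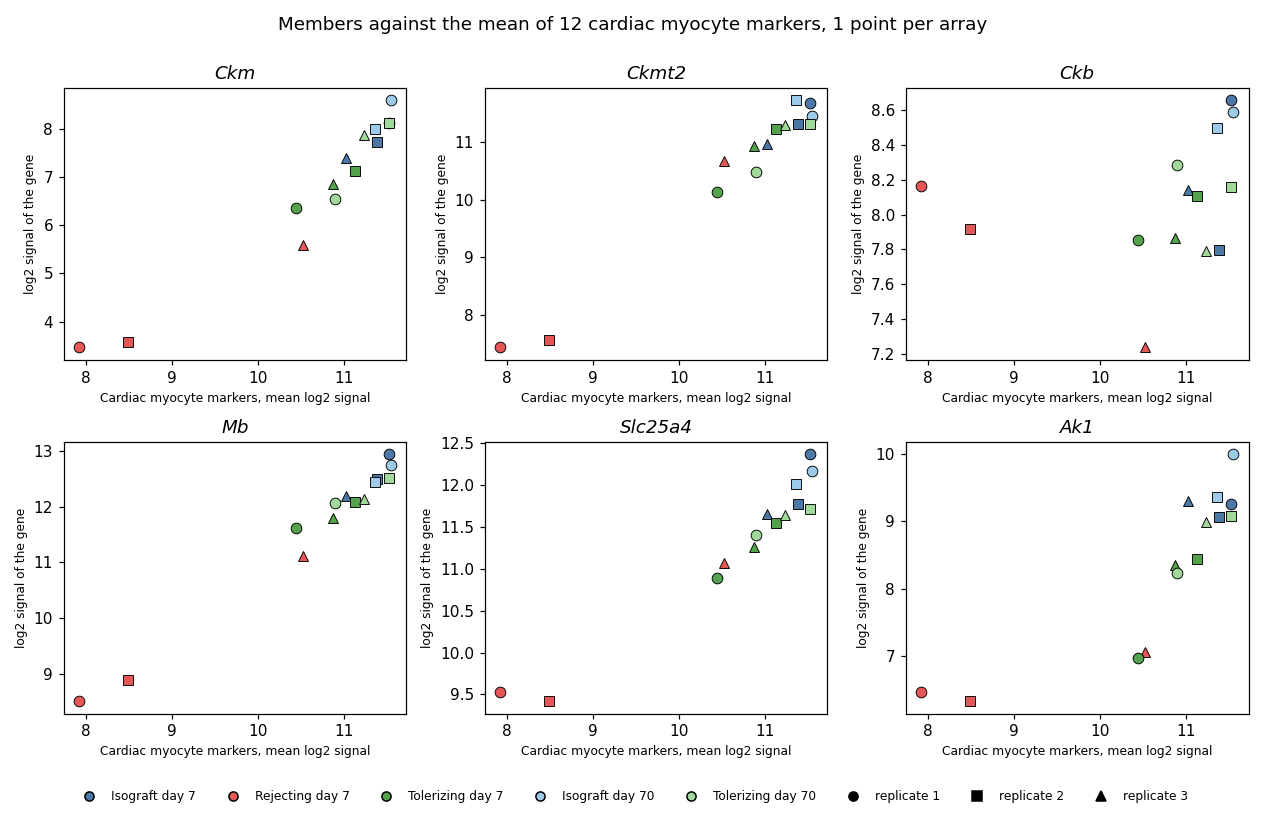
Log2 signal of each gene (floor of 11 applied) plotted against the mean log2 signal of the 12 cardiac myocyte markers on the same array. The differences given next were calculated from these values and are not drawn. As gene minus marker mean, Ckm was at -4.47 to -4.93 in the rejecting grafts and at -3.40 to -3.66 in day 7 isografts. On the same measure Ckb spread from -3.28 to 0.24 in the rejecting grafts.

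Array by array on this log2 scale, Mb was 1.12 to 1.42 above the myocyte mean in day 7 isografts. In rejecting grafts it was 0.40 to 0.59 above that mean. These ranges did not overlap, nor did those of Ckm. The share of all probe sets without overlap on this measure was not determined, so these ranges are a description only. For Ckm and Mb rejecting replicate 3 was no exception here, at -4.93 and 0.59. Ak1 did not track the myocyte markers on every array. It lay at -1.46 and -2.17 on rejecting replicates 1 and 2 but at -3.47 on replicate 3, and day 7 tolerizing replicate 1 had -3.48. Slc25a4 lay at 1.60, 0.93 and 0.54 in rejecting grafts and at 0.38 to 0.84 in day 7 isografts.

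Of 7 skeletal muscle markers tested none was called in any comparison (median -0.09 in rejecting against isograft hearts), and the fast-fibre genes Myh1 and Tnni2, which were not tested, had highest signals of 12.2 and 7.7. The summed signal of the skeletal muscle list nevertheless differed between groups, at 787.1 to 3361.8 in day 7 isografts, 2233.1 to 4083.8 in rejecting grafts, 4986.2 to 6457.6 in day 7 tolerizing grafts, 735.7 to 2603.5 in day 70 isografts and 3937.9 to 5256.8 in day 70 tolerizing grafts, so that tolerizing grafts lay above isografts on both days. In the allografts that sum was mostly Acta1, the alpha skeletal actin that heart muscle also makes. On the lowest isograft arrays Acta1 was the smaller part, at 177.4 of 787.1 at day 7 and 52.8 of 735.7 at day 70. Acta1 had 177.4 to 2478.4 in day 7 isografts, 1645.4 to 3686.9 in rejecting and 4411.1 to 5934.9 in day 7 tolerizing grafts. At day 70 it had 52.8 and 2097.1 in isografts against 3328.8 to 4810.9 in tolerizing grafts. Its log2 difference of tolerizing from isograft hearts was 3.01 at day 7 (SE 1.06, limma adjusted p 0.220) and 3.50 at day 70 (SE 1.19, 0.149), and was not called. The rest of the list summed to 465.2 to 883.4 in day 7 isografts, 396.9 to 587.7 in rejecting and 522.7 to 745.7 in day 7 tolerizing grafts, with overlap. None of the 4 atrial, 3 red blood cell and 4 neural markers tested was called in rejecting against isograft hearts. Of 5 smooth muscle markers 1 fell (Myh11), of 5 endothelial markers 3 fell (Kdr, Tek and Tie1), and of 2 fat markers 1 fell (Fabp4). In that comparison 9.18% of all probe sets were called lower, and lists this short cannot set 1 call apart from that share. The endothelial markers summed to 533 to 1279.2 in day 7 isografts, 339.2 to 359.1 in rejecting and 435.3 to 544.8 in day 7 tolerizing grafts, and the part of these cells in the results was not tested.

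The tolerizing grafts at day 7 gave values between the isografts and the rejecting grafts, and no gene of the 6 was called against isografts. The share called lower was 0.75% of all probe sets. All 6 differences were negative, from -0.26 for Ckb to -1.29 for Ak1, with a median of -0.71 against -0.02 over all probe sets, and 1 had an unadjusted p under 0.05, as did 1348 of the 10395 probe sets. Ak1 had that largest difference, with signals of 124.6, 349 and 326.5 against the isografts' 533.3 to 634.2. The arrays did not overlap, replicate 1 being lowest, and the adjusted p was 0.112 (SE 0.36, limma, 95% interval -2.07 to -0.51). Ckm gave 82.6, 139.6 and 116.8, all below the isografts' 170.3 to 279 (log2 -0.97, limma adjusted p 0.483). Mb gave 3122.1, 4332 and 3564.7 and Slc25a4 1897.1, 2991.8 and 2448.8, also below every isograft array. In all, 4 of 6 genes did not overlap, where 11.2% of probe sets did not in this direction. None of the 12 myocyte markers was called here, and 3 leukocyte markers were higher, as were 0.943% of all probe sets, a count that ran from 0 to 6 over the alternative settings and was 0 without isograft replicate 1 or 2 or tolerizing replicate 1 or 3. The beta-actin ratio of these 2 groups did not overlap either.

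Rejecting and tolerizing allografts at day 7 share donor and recipient strain and differ by the named antibody treatment and the outcome. Ckm and Mb, 2 of the 6, were lower in rejection, where 0.885% of all probe sets were called lower. Ckm differed by -2.58 on the log2 scale (at least 5.98-fold, SE 0.52, limma adjusted p 0.0263) and Mb by -2.33 (5.03-fold, SE 0.51, limma adjusted p 0.0388), both without overlap of the arrays, as for 7.42% of probe sets in this direction. Ckmt2 differed by -2.21 (limma adjusted p 0.112), Ak1 by -1.31 (0.0963) and Slc25a4 by -1.23 (0.122). Ckb gave 231.2, 275.8 and 233.1 in tolerizing grafts, inside its range in rejecting grafts, at -0.17 (limma adjusted p 0.827, 95% interval -0.72 to 0.38). The median of the 6 was -1.76, against 0.06 over all probe sets. Which genes were called here turned on single arrays: without rejecting replicate 3, 5 of the 6 were called (Ckmt2 -3.26, limma adjusted p 0.000156), and without rejecting replicate 1 or 2 or tolerizing replicate 2 or 3, none. Mb was also lost without tolerizing replicate 1 (0.0634), and neither gene was called with only these groups in the fit (adjusted p 0.229 for Ckm and 0.297 for Mb) or with the beta-actin covariate (0.110 and 0.150). None of the 12 myocyte markers was called with all arrays, and 12 were without rejecting replicate 3. Of the leukocyte markers 1 was higher (Itgb2, median of the list 0.76), 4 with array weights and 0 to 2 when each array was left out, and of the endothelial markers 1 was lower (Tek).

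At day 70 the tolerizing grafts again had lower means than isografts without a call for any of the 6, where 0.856% of probe sets were called lower. The differences ran from -0.36 for Mb to -0.92 for Ak1 (SE 0.40, limma adjusted p 0.294, 95% interval -1.79 to -0.05), with a median of -0.53 against -0.09 over all probe sets. Ak1 gave 299.9, 540.2 and 508.3 in tolerizing grafts and 1023.7 and 660.1 in isografts. Ckm gave 93.9, 279 and 236.2 in tolerizing grafts and 388.2 and 258.4 in isografts, and overlapped. Ckmt2 (1418.2, 2544.6 and 2509.9 against 2813.5 and 3370.1), Ckb (312.7, 286 and 221.4 against 385.9 and 361.3), Slc25a4 and Ak1 did not overlap, 4 of 6 genes, but 21.2% of all probe sets did not overlap in this direction with 3 arrays against 2. The beta-actin ratio also did not overlap between these day 70 groups. None of the 12 myocyte markers was called, and 8 leukocyte markers were higher, as were 2.35% of all probe sets. That leukocyte count was 0 with only these groups in the fit and 4 without tolerizing replicate 1. It also fell without isograft replicate 1, a fit that leaves 1 isograft array and is given without a count.

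Time itself gave no call. In tolerizing grafts the means of all 6 genes were higher at day 70 than at day 7, by 0.14 for Ckb to 0.85 for Ak1 on the log2 scale, and the Ak1 difference had a limma adjusted p of 0.776 (SE 0.36); 0.0385% of all probe sets were called in this comparison. In isografts none of the 6 was called between the days, nor was any probe set (0%), and 559 probe sets had an unadjusted p under 0.05 in the limma fit. For the interaction of graft type and day the 6 values ran from -0.21 to 0.37, and no probe set was called (409 had an unadjusted limma p under 0.05). The order of the group means was nevertheless the same for all 6 genes: day 70 isografts, day 7 isografts, day 70 tolerizing, day 7 tolerizing and rejecting grafts, from high to low. Neighbours in that order overlapped except for Ckm and Mb between day 7 tolerizing and rejecting grafts, and Ak1 between the isograft days, where 10.6% of probe sets did not overlap in that direction. The 6 genes share the arrays, so their orders are not independent of each other.

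The balance of the cytosolic creatine kinase subunits was read as log2 Ckb minus log2 Ckm on each array, a quantity whose zero depends on the probes, so that only its differences between groups are read. It was 0.53, 0.07 and 0.73 in day 7 isografts, 1.48, 0.98 and 1.00 in day 7 tolerizing grafts and 4.70, 4.34 and 1.65 in rejecting grafts. These ranges did not overlap. The means were 0.44 ± 0.34 (SD, n = 3), 1.15 ± 0.29 (SD, n = 3) and 3.57 ± 1.67 (SD, n = 3). The shift of rejecting from isograft hearts was 3.12, that of tolerizing from isograft hearts 0.71 and that of rejecting from tolerizing hearts 2.41, each with a two-sided exact permutation p of 0.1, the smallest that 3 against 3 arrays can give, and 0.125 adjusted over 5 comparisons. The dim Ckm probe set matters for all of these shifts, since averaging each gene's probe sets makes each of them smaller. On that dim set Ckm differed by -0.05 in rejecting against isograft and by -0.78 in rejecting against tolerizing hearts at day 7. With averaged probe sets the shift of tolerizing from isograft hearts was -0.14. At day 70 the values were 1.74, 0.04 and -0.09 in tolerizing grafts and -0.01 and 0.48 in isografts, a difference of 0.32 (exact permutation p 0.9). That difference was -0.27 without tolerizing replicate 1. Without rejecting replicate 3 the shifts of rejecting from isograft and tolerizing hearts were 4.08 and 3.37. Over all 9 allografts against all 5 isografts it was 1.40 (exact permutation p 0.0924, adjusted 0.125).

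**Figure D4:**
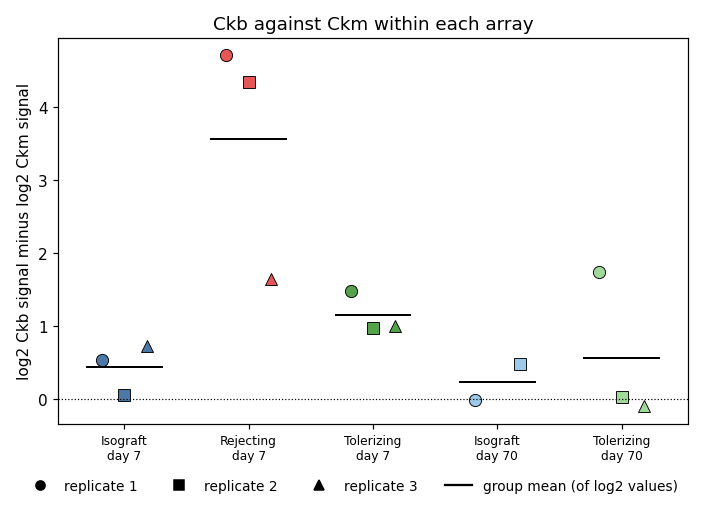
Log2 Ckb minus log2 Ckm on each array (floor of 11 applied), by group, with the group mean as a bar. The rejecting arrays at 1.65 to 4.70 lie above all day 7 tolerizing arrays at 0.98 to 1.48, which lie above all day 7 isografts at 0.07 to 0.73.

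Genes with the most similar course were sought by the root mean square difference of centred log2 values over the 14 arrays, among 6490 probe sets, and are given as a description. Ckmt2 was closest to Fhl2 (0.26), Myom1 (0.27) and Mb (0.30), of which Myom1 encodes an M-band protein of the sarcomere. Mb was closest to Uqcr11 (0.29), a subunit of respiratory complex III, Myom1 (0.30) and the cardiac troponin I gene Tnni3 (0.30). Slc25a4 was closest to Fh1 (0.18) and Sdhb (0.20), which encode enzymes of the citric acid cycle, and to cardiac actin, Actc1 (0.21). The members' own spread (SD of log2 over the arrays) was 1.38 for Ckmt2, 1.35 for Mb and 0.88 for Slc25a4, larger than these distances. The genes named are the nearest of all those compared, so small distances follow from the search. Ckm, with a spread of 1.62, was nearest to Myzap (0.38), Lpl (0.41) and the insulin-responsive glucose transporter Slc2a4 (0.42). Ak1, with 1.18, was nearest to Fgf1 (0.26), Ndrg2 (0.28) and the muscle phosphofructokinase gene Pfkm (0.33). Ckb, with a spread of only 0.38, was nearest to Med22 (0.18), St6galnac2 (0.19) and the endothelial gene Emcn (0.20). A gene that varies little is near many others.

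The other genes of high-energy phosphate transfer did not move as a block. Of 26 further genes for creatine supply, other kinases, carriers, AMP-activated protein kinase and tissue globins, 16 were on the array and tested, and in rejecting against isograft hearts 2 rose and 2 fell, where 8.54% of all probe sets rose and 9.18% fell, so these counts are near the background. Their median log2 difference was 0.05, against 0.04 over all probe sets. Gatm, which encodes the first enzyme of creatine synthesis, rose in every comparison of allografts with isografts. Its signals had a median of 82.3 in day 7 isografts (75.7 to 93.7), 354.4 in rejecting (314.3 to 430.2) and 304.2 in day 7 tolerizing grafts (265.5 to 323.2), and 223.4 in day 70 tolerizing grafts (198 to 391.8), with 58.4 and 77 in day 70 isografts. Every allograft array lay above every isograft array. The rise was 4.35-fold in rejecting (log2 2.12, SE 0.24, limma adjusted p 0.000121) and 3.55-fold in tolerizing grafts at day 7 (1.83, SE 0.24, 0.0013), and 3.86-fold in tolerizing grafts at day 70 (1.95, SE 0.27, 0.0012). Rejecting and tolerizing grafts differed by 0.29 (limma adjusted p 0.640), so Gatm, unlike Ckm, was not called between the allograft groups. The tolerizing calls were lost in some settings: at day 7 in the run of 9 arrays alone (adjusted p 0.0676) and with the beta-actin covariate (0.0662), and at day 70 with only these groups in the fit (0.137).

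Adenylate and nucleoside diphosphate kinases went different ways in rejecting against day 7 isograft hearts. Ak3, the mitochondrial matrix adenylate kinase that uses GTP, had 17.5 to 73.9 in rejection and 105.3 to 141 in isografts, and fell 3.28-fold (log2 -1.71, SE 0.40, limma adjusted p 0.00891). Nme2, a nucleoside diphosphate kinase, had 859.9 to 1413.4 against 1897.7 to 2222.7 and fell 1.96-fold (-0.97, SE 0.20, 0.00465). Ak4, another mitochondrial family member, rose 1.95-fold, from 31.2 to 46.6 in isografts to 69.5 to 75.4 in rejection (0.96, SE 0.28, 0.0276). The 3 calls were lost with only these groups in the fit (adjusted p 0.0911, 0.0501 and 0.0639), and that of Ak4 also in 6 other settings.

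Among transcription factors and coactivators of muscle and mitochondrial genes, 10 of 15 were tested and 3 fell in rejecting against isograft hearts, where 9.18% of all probe sets fell. The median was -0.58. Ppara, the fatty acid receptor that drives oxidation genes in heart, had 25.2, 41 and 49 from lowest to highest in rejection and 82.8 to 101.1 in isografts (2.50-fold lower, log2 -1.32, SE 0.31, limma adjusted p 0.00958). Mef2c, the muscle factor whose site class was searched above, had 8 to 13.7 in rejection and 48.2 to 80.4 in isografts (at least 5.49-fold lower, since 2 of the rejecting arrays were raised to the floor, -2.46, SE 0.38, 0.000994). Ppargc1a, a coactivator of mitochondrial biogenesis, was under the floor on all rejecting arrays (2.4 to 6.9) and at 14.5 to 24.7 in isografts, so its call compares the isografts with the floor itself and gives no more than a bound, at least 1.73-fold lower. The Mef2c call was lost with a floor at the 50th percentile (adjusted p 0.0671), which at 41.2 is above all its rejecting values. The Ppargc1a call was lost without isograft replicate 1 (0.0678) and with only these groups in the fit (0.0696). These falls are not shown to be particular to rejection. In day 7 tolerizing against isograft hearts none of the 3 was called, but the log2 differences were -0.76 for Ppargc1a (limma adjusted p 0.0932), -0.92 for Ppara (0.200) and -1.17 for Mef2c (0.180), and Ppargc1a was called with array weights (0.0207) and without isograft replicate 3 (0.0321). Between rejecting and tolerizing hearts Ppara differed by -0.40 (limma adjusted p 0.615) and Mef2c by -1.29 (0.116, and 0.0113 with array weights). At day 70 Mef2c was called lower in tolerizing grafts with the floor at the 50th percentile (0.0237) and not otherwise.

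**Figure D5:**
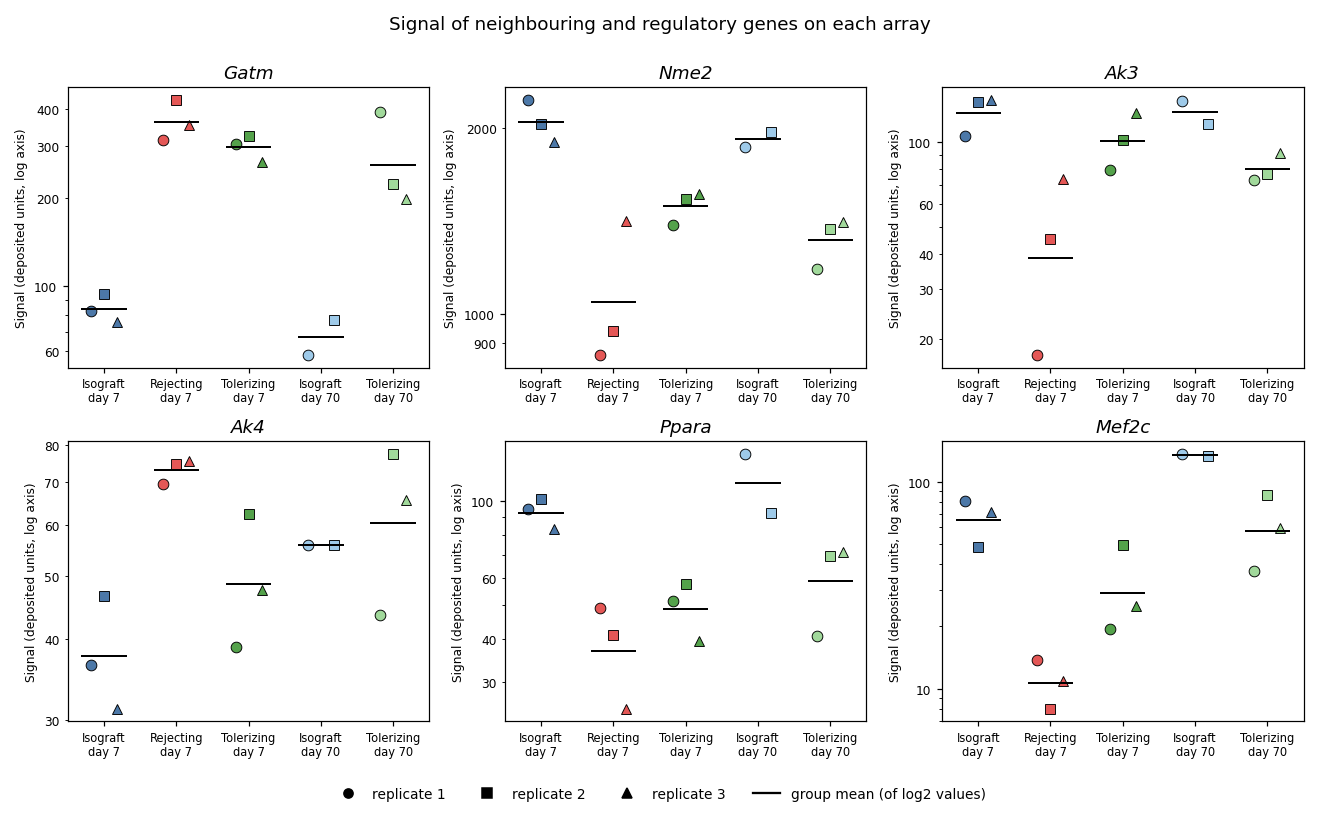
Signal of 6 related genes on each array (deposited units, log axis), by group, with replicates 1 to 3 as circle, square and triangle and a bar at the mean of log2 values. Gatm lies at 198 to 430.2 in all allografts and at 58.4 to 93.7 in all isografts, and Mef2c lies at 8 to 13.7 in all rejecting grafts.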

How the data were processed

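The authors deposited 1 table of signal intensity per probe set for 14 MG-U74Av2 arrays, on a linear scale to judge by its values. Software and scaling: not given in the sources used here. The 2% trimmed mean was 100.06 to 100.07 on every array, so no further scaling was applied, and the number of arrays limits the precision. Signals under 11, the 25th percentile of all values, were raised to that floor before log2. Tested were 10395 probe sets that exceeded the floor on 3 or more arrays, without 66 controls. Symbols came from the platform annotation updated through a RefSeq table: 1 gene for 10833 probe sets (10817 of them found in RefSeq), several for 396, none for 1193. The brightest probe set stood for a gene.

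The model had a mean for each of the 5 groups (R 4.3.3, limma 3.58.1, eBayes with trend, 9 residual and 4.45 prior degrees of freedom). Tests were two-sided with Benjamini-Hochberg adjustment over all probe sets at 0.05. Ckb minus Ckm per array had exact permutation tests. The genes, lists, motifs and tests were chosen with earlier results of these data known. Every probe set of the 6 genes is named, the 3 nearest genes by course, and the genes of the energy and regulator lists called in the comparison with the most calls. Alternatives covered scaling, the floor, the filter, the spread model, blocks, weights, the runs and each array left out. The model did not pair the arrays by replicate number. Correlations of deviations from group means had a median of 0.05 for same numbers (-0.18 to 0.34, 26 pairs). For different numbers the median was -0.06 (-0.30 to 0.19, 52 pairs). These overlapping ranges cannot show that pairing is absent.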

Additional observations from a re-analysis of the deposited data

How the results depend on the processing

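Of the 6 genes, 5 were called lower in rejecting against isograft hearts at day 7 and 2 in rejecting against tolerizing hearts. The first count was 3 with only the groups compared, 4 with probe sets above the floor on all arrays, which leaves Ckm untested, and 4 to 5 when each array was left out in turn, Ckmt2 being lost without rejecting replicate 2. The second was 1 with median scaling, with the floor at the 50th percentile and with probe sets above the floor on all arrays, 0 without a filter, with only the groups compared and with the beta-actin covariate, 4 in the run of 9 arrays alone, 5 with array weights, and 0 to 5 when each array was left out in turn. With the replicate block the counts were 5 and 2, and the block changed no call of the 6 genes. The shift of Ckb minus Ckm in tolerizing against isograft hearts became -0.14 with mean probe sets at day 7 and, at day 70, lay between -0.27 and 0.65 when each array was left out. The causes were not tested. Counts over all probe sets moved too: 1842 for rejecting against isograft hearts ran from 1153 to 2948, 147 for rejecting against tolerizing hearts from 20 to 1512, 176 for day 7 tolerizing grafts against isografts from 8 to 364, and 333 for those of day 70 from 37 to 405. For time in tolerizing grafts 4 became 0 to 46, and for time in isografts and the interaction 0 became 0 to 32 and 0 to 3. The alternatives for the related genes and the marker lists were added after seeing the data. Signals near the floor, as for Ckm, Mef2c and Ppargc1a in rejection, limit the size of a fall.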
